A study of Citrus junos with 4 samples.

Results

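Jasmonate synthesis and oxylipin genes are described here in mature leaves of Ziyang xiangcheng (*Citrus junos*), a citrus rootstock, as doubled diploid (4×) plants and as diploid (2×) plants. The members were the 101 of 29406 genes in the deposited table whose description contained a word of the pathway: phospholipase A1, lipoxygenase, hydroperoxide lyase, allene oxide, 12-oxophytodienoate, jasmonate O-methyltransferase, jasmonic acid-amido, coronatine-insensitive, jasmonate ZIM or protein TIFY. The rule uses these words and no expression value. RNA-seq was carried out on 2 pools of 4× leaves and 2 pools of 2× leaves, and each pool held the leaves of 4 untreated plants. The leaves were the fourth or the fifth from the top of the plant and 3 to 5 months old. The 4× plants were spontaneous doubled diploids found among the seedlings of the cultivar, so both groups carry 1 genotype at different ploidy. The design text calls the 2 pools of a ploidy independent biological replicates.

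Jasmonic acid is a lipid-derived hormone of wounding, defence, stress and stamen development. Lipases release trienoic fatty acids from plastid membranes, a 13-lipoxygenase adds oxygen, and allene oxide synthase and allene oxide cyclase make OPDA, which a peroxisomal reductase and beta-oxidation convert to jasmonic acid. The conjugate with isoleucine (JA-Ile), made by JAR1, binds the receptor of COI1 and a JAZ protein, after which the JAZ repressor is degraded and MYC transcription factors are released. JAZ genes, which belong to the TIFY family, and several synthesis genes are themselves induced by jasmonate, and their transcripts are widely used as readouts of the pathway.

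Expression was given as RPKM, the uniquely mapped reads of a gene scaled by gene length and by the size of the library, so levels can be set side by side between genes and are relative to all RNA of the leaf. In leaves as a whole, fewer cells of a type and less RNA per cell cannot be told apart. The library totals behind the values were 8874306 to 9545185 reads, and 1 read on a gene of 1 kb was worth 0.105 to 0.113 RPKM. The 50 bp reads were placed on the *Citrus sinensis* genome, that of a related species, and genes with near-identical copies are less certain. The leaf label was checked with mesophyll markers: all 17 genes described as Rubisco small subunits or chlorophyll a-b binding proteins had reads, with a summed level of 17810 to 18049 RPKM in 4× and 15111 to 18491 RPKM in 2×. Positions and sequences of the genes were not analysed here.

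Of the 101 members, 57 averaged 1 RPKM or more across the libraries and were tested. Among the other 44 members, 12 were at 0 in every library and 32 had reads in at least 1, with a highest mean of 0.769 RPKM. The mature leaf carried few of these genes at a high level: 27 members exceeded a mean of 10 RPKM and 3 exceeded 100 RPKM. These 3 were Cs2g17230 (TIFY 6B), Cs4g06520 (TIFY 3B) and orange1.1t04376, a 13-lipoxygenase. The descriptions are chains of database matches, and in 45 members another name stood before the word of the rule. This held for all 10 members of the amido synthetase class, named first as auxin-type GH3 enzymes or relatives, for 26 of 31 methyltransferases, for 5 of 6 receptor-class members and for 4 of 14 phospholipases, of which the near-silent Cs1g03190 bears only another spelling of phospholipase A1 (the DAD1 type) first. The word jasmonate ZIM matched 0 genes, and hydroperoxide lyase stood first in none.

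In 4× leaves, 8 of the 57 tested members were lower than in 2× leaves at an adjusted p below 0.05, or 14.0% of those tested, and 0 were higher, where 2 had an unadjusted p below 0.05 and voom on recovered reads likewise called 0. The background in the same test over 16157 genes was 1.39% called in either direction and 0.99% called lower. The 8 genes were the JAZ-type repressors TIFY 10A, TIFY 10B, TIFY 5A and TIFY 9, an allene oxide synthase, an allene oxide cyclase, a plastid-type phospholipase A1 and a gene of the methyltransferase class. Their differences lay between -1.64 and -0.58 on the log2(RPKM + 0.5) scale, which understates the change of genes with low RPKM. The test was limma with Benjamini-Hochberg adjustment over all tested genes. Which members passed depended on single libraries, as did the calls over all tested genes. Leaving out 4×-2 removed every call among the members, while some genes of the whole test were still called. With no filter on low values limma called 0 members, with 20 of the 89 then tested at an unadjusted p below 0.05. Limma voom on the reads recovered from the RPKM values called 9, all 8 among them.

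An unadjusted p below 0.05 with a lower value in 4× was found in 19 members, or 33.3%, against a background of 8.16%. Both 4× libraries lay below both 2× libraries in 24 members, or 42.1%, against 26.2% of all tested genes. Both counts include Cs2g03240, Cs3g05650 and orange1.1t04463, which reached the mean needed for testing only through 2×. Their 4× means were 0.724, 0.683 and 0.803 RPKM. Both 4× libraries lay above both 2× libraries in 9 members, or 15.8%, against 17.5%. Among these, Cs2g06880 and Cs5g19710 reached the mean needed for testing only through 4×, with 2× means of 0.841 and 0.971 RPKM. The median difference was small, -0.09 over the 57 members and -0.03 over all tested genes. Below 0 were 32 members, and by their median most of all tested genes were below 0 as well. The direction of the members' median rested on single libraries: it was 0.024 without 2×-1 and -0.20 without 2×-2, and it was close to 0 with no filter on low values. In 29 of the 57 the 4× and 2× means lay within 1.2 times of each other.

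**Figure D1:**
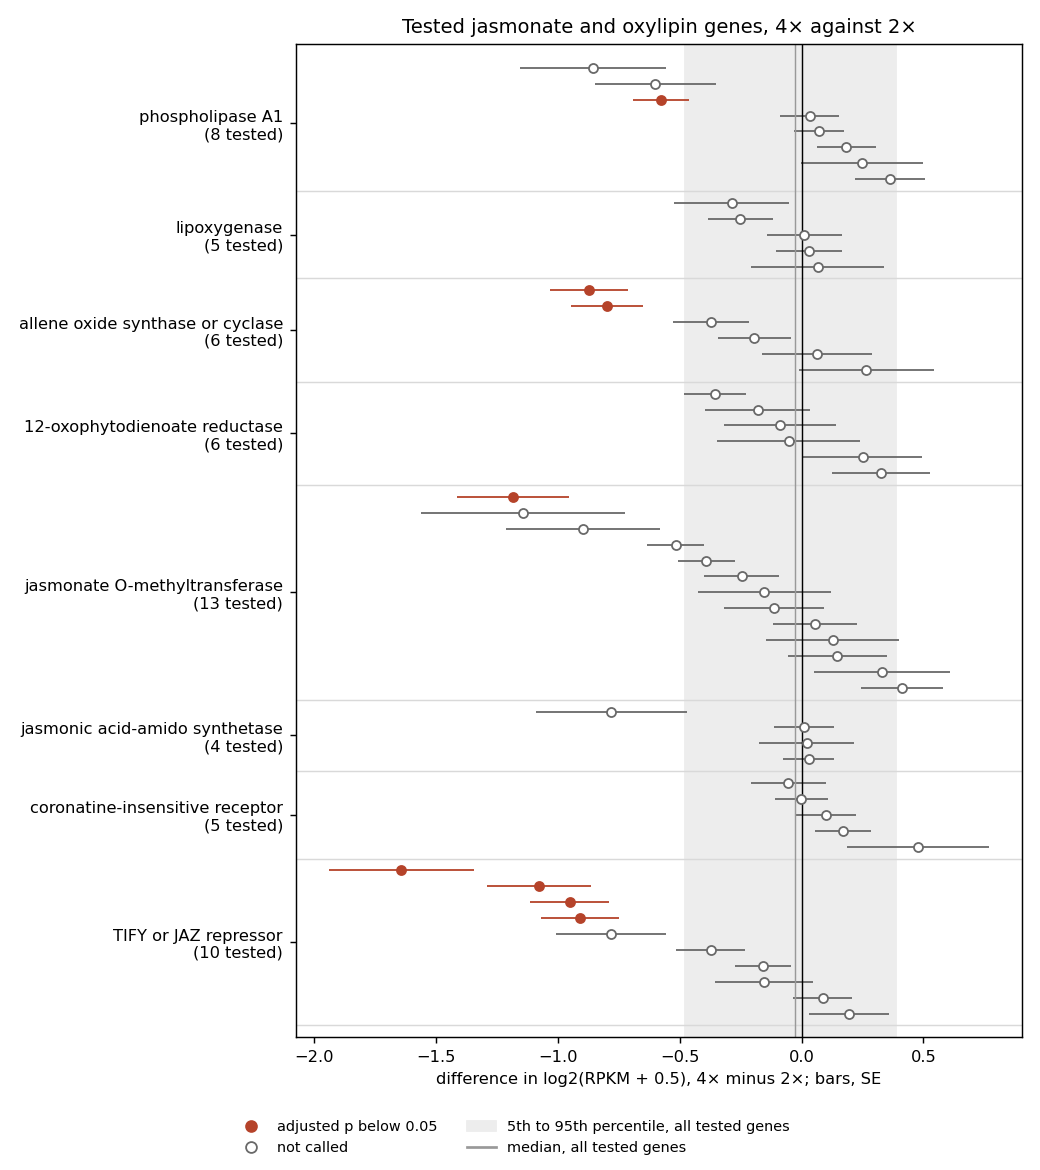
Difference in log2(RPKM + 0.5), 4× minus 2×, of each of the 57 tested members (points; bars are the standard error from limma), grouped by class in pathway order, with the 5th to 95th percentile of all tested genes (-0.48 to 0.39) shaded. The 8 called members (filled) all lie left of the shaded band, and 4 of them are TIFY genes.

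Of the 10 TIFY genes, 4 were called, all lower in 4×, against 0.99% of all tested genes called lower. The median difference of the class was -0.58. Both 4× libraries lay below both 2× libraries in 7 of the 10, against 26.2% of all tested genes, and above them in 1, against 17.5%. All 10 members were tested, and none had another family named first. Their summed level was 501 and 432 RPKM in 4×, against 577 and 535 RPKM in 2×, a ratio of 0.838. A two-sided exact permutation test gave p = 0.33, the smallest p that 2 libraries against 2 allow.

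Cs4g07130, described as TIFY 10B (JAZ2 in Arabidopsis), had 56.3 and 42.8 RPKM in 4×, against 106 and 81.0 RPKM in 2×. Both 4× pools lay below both 2× pools, with the wider spread of RPKM in 2×, where the level was also higher. The difference was -0.91 ± 0.16 (SE, limma adjusted p = 0.035). Cs1g17220, described as TIFY 10A (JAZ1 in Arabidopsis), had 9.47 and 7.09 RPKM in 4× and 15.3 and 17.5 RPKM in 2×, again without overlap, a difference of -0.95 ± 0.16 (SE, limma adjusted p = 0.031). The gene with the neighbouring identifier, Cs1g17210, has the same description and a lower level, with 2.25 and 1.65 RPKM in 4× and 3.92 and 3.45 RPKM in 2×. It was not called, at -0.78 ± 0.23 (SE, limma adjusted p = 0.15), although its 2 pools of each ploidy did not overlap. The ratio of Cs1g17220 to Cs1g17210 in the same library was 4.22 and 4.30 in 4× and 3.89 and 5.06 in 2×, and overlapped. Reads of 2 such similar genes may be split or lost when only unique alignments are kept, which was not tested.

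Cs7g02820, described as TIFY 9 (JAZ10 in Arabidopsis, a repressor induced by jasmonate and acting in feedback), had 4.80 and 3.56 RPKM in 4× and 7.69 and 11.2 RPKM in 2×. The pools did not overlap, but those of 2× were spread widely. Its difference was -1.08 ± 0.21 (SE, limma adjusted p = 0.047), and under median-of-ratios scaling of the libraries the adjusted p was 0.056. Cs2g03240, described as TIFY 5A (JAZ8 in Arabidopsis, a repressor that resists jasmonate-induced degradation there), had the largest difference of the tested members, -1.64 ± 0.30 (SE, limma adjusted p = 0.037). It had 0.986 and 0.462 RPKM in 4×, against 3.74 and 2.79 RPKM in 2×. These values rest on 9 and 4 reads in 4×, against 34 and 26 reads in 2×. With means of 0.724 RPKM in 4× and 3.27 RPKM in 2×, the gene reached the mean of 1 RPKM needed for testing only through 2×. With no filter on low values its limma adjusted p was 0.27. Scaled to the library totals, the ratio of reads was 0.224, with a 95% interval of 0.113 to 0.413 from an exact binomial (Clopper-Pearson) limit that covers counting error only.

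The most abundant TIFY genes did not pass the test. Cs2g17230, described as TIFY 6B (JAZ3 in Arabidopsis), was the most highly expressed member, with 240 and 228 RPKM in 4× and 236 and 206 RPKM in 2×, and its ploidies overlapped. The 2 means were 1.06 times apart. Cs4g06520, described as TIFY 3B (JAZ12 in Arabidopsis), had 161 and 120 RPKM in 4× and 175 and 186 RPKM in 2×, without overlap, with a difference of -0.37 ± 0.14 (SE, limma adjusted p = 0.29). The 2 genes described as TIFY 4B, the PEAPOD type that restrains leaf cell proliferation in Arabidopsis and is not a JAZ, had differences of -0.16 (Cs5g30760) and 0.20 (Cs9g07620), neither called. Cs4g20330, described as TIFY 8, which is also outside the JAZ group, had a difference of -0.15 and was not called. TIFY 10B set against TIFY 6B in the same library, 1 of 4 pairs chosen after values were seen, gave ratios of 0.235 and 0.188 in 4× and 0.450 and 0.393 in 2× (two-sided exact permutation p = 0.33, the smallest possible).

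**Figure D2:**
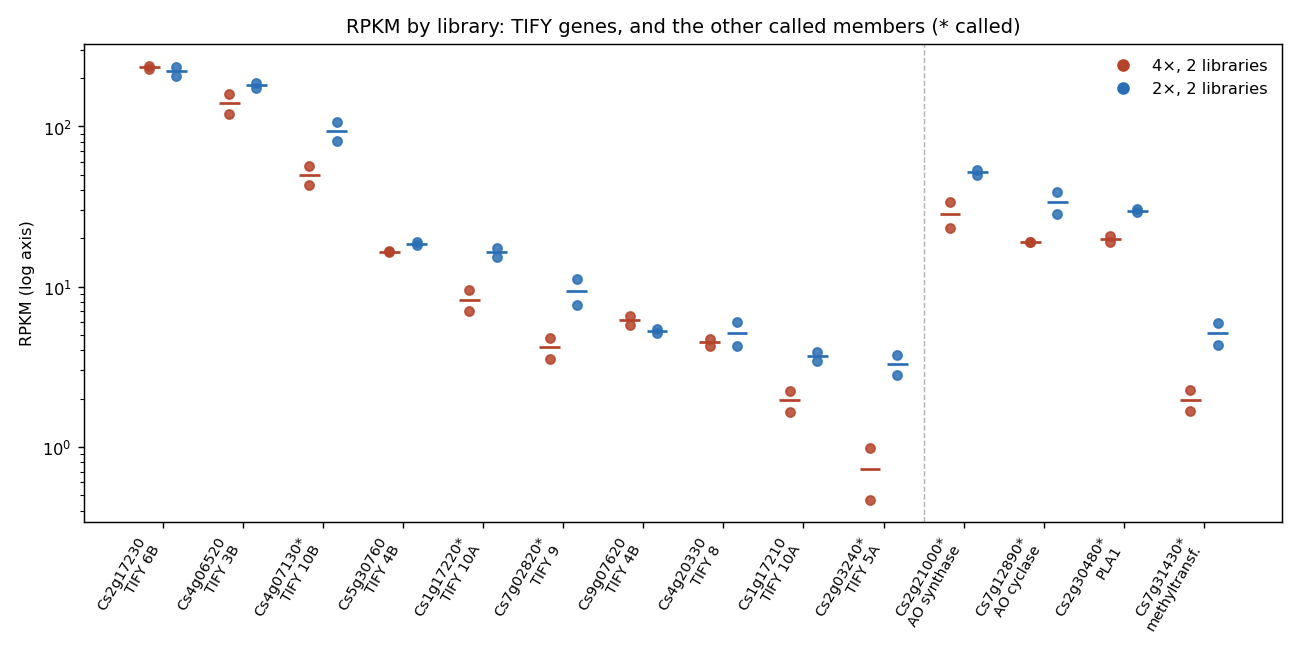
RPKM on a log axis in each library for the 10 TIFY genes (left of the dashed line, by level) and the other 4 called members (right), with 4× left of 2×; points are libraries, short lines are means of 2 and asterisks mark adjusted p below 0.05. The highest TIFY gene, Cs2g17230, overlaps between the ploidies at 240 and 228 RPKM in 4× and 236 and 206 RPKM in 2×, whereas Cs2g03240 lies at 0.986 and 0.462 RPKM in 4×, against 3.74 and 2.79 RPKM in 2×.

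Allene oxide synthase and allene oxide cyclase, which commit the lipoxygenase product to OPDA and set its stereochemistry, held 2 more of the called genes. Of 7 members, 6 were tested, 2 were called lower in 4×, against 0.99% of all tested genes, and 3 had both 4× libraries below both 2× libraries, against 26.2%. The summed level of the class was 87.2 and 75.9 RPKM in 4×, against 137 and 112 RPKM in 2×, a ratio of 0.656 (two-sided exact permutation p = 0.33). Split by enzyme, the synthases summed to 36.0 RPKM in 4× and 61.7 RPKM in 2×, and the cyclases to 45.5 RPKM in 4× and 62.7 RPKM in 2×, as means of 2 libraries. Of the synthase sums, the called Cs2g21000 alone held 28.5 RPKM in 4× and 51.7 RPKM in 2×. Of the cyclase sums, the called Cs7g12890 held 18.9 RPKM in 4× and 33.7 RPKM in 2×.

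Cs2g21000, the most highly expressed allene oxide synthase, had 33.7 and 23.2 RPKM in 4×, against 53.8 and 49.7 RPKM in 2×. The 2× pools were close to each other and both lay above the 4× pools. The difference was -0.87 ± 0.16 (SE, limma adjusted p = 0.038). Cs3g24230, the next synthase, had 7.24 and 7.89 RPKM in 4× and 11 and 8.91 RPKM in 2×, without overlap, and was not called at -0.37 ± 0.16 (SE, limma adjusted p = 0.34). The ratio of Cs2g21000 to Cs3g24230 was 4.66 and 2.94 in 4× and 4.88 and 5.57 in 2×, with the pools of 4× far apart. Cs7g12890, an allene oxide cyclase, had 18.9 RPKM in both 4× pools, against 38.9 and 28.4 RPKM in 2×, a difference of -0.80 ± 0.15 (SE, limma adjusted p = 0.038). Here the spread lay in 2×, and without 2×-1 the adjusted p was 0.13.

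A second cyclase with the same description, Cs6g18900, had 20.0 and 21.2 RPKM in 4× and 27.5 and 20.2 RPKM in 2×, and its ploidies overlapped. The ratio of Cs7g12890 to Cs6g18900 in the same library, a pair chosen after the values were seen, was 0.945 and 0.894 in 4×, against 1.41 and 1.41 in 2× (two-sided exact permutation p = 0.33). Cs7g12890 was thus the higher of the 2 cyclases in both 2× pools and the lower in both 4× pools. The remaining tested members of the class had differences of 0.06 (Cs6g18910) and 0.27 (Cs3g06080), and neither was called.

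Upstream of these enzymes, the lipoxygenases showed no called difference: of 14 members 5 were tested, with differences from -0.29 to 0.07, none at an unadjusted p below 0.05 in limma and none called by voom. Their summed level was 233 and 158 RPKM in 4× and 231 and 151 RPKM in 2×, so pools of the same ploidy differed more than the ploidies did. This spread came from orange1.1t04376, a plastid 13-lipoxygenase of the type that feeds jasmonate synthesis, with 173 and 98.0 RPKM in 4× and 161 and 96.1 RPKM in 2×. Its difference of 0.07 had a standard error of 0.27, too wide to show a small change. Cs1g17380, a second 13-lipoxygenase, had 21.2 and 19.2 RPKM in 4× and 23.4 and 17.1 RPKM in 2×, and overlapped. Cs3g13930, a 9-lipoxygenase, which makes oxylipins other than jasmonate, had 17.7 and 18.1 RPKM in 4× and 24.0 and 19.1 RPKM in 2×, a difference of -0.25 (limma adjusted p = 0.48). One low lipoxygenase, orange1.1t03769, was singled out after its values were seen: it had 34 and 5 reads in 4×, against 2 and 2 reads in 2×. It was not tested at the mean of 1 RPKM, 1 pool held most of its reads, and without the filter its adjusted p was 0.53.

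Among the phospholipases A1, which free fatty acids from membrane lipids, 8 of 14 members were tested. Of these 1 was called, lower in 4×, against 0.99% of all tested genes called lower. Cs2g30480, described as the plastid enzyme PLA1-Igamma3, had 20.8 and 18.9 RPKM in 4×, against 30.5 and 29.2 RPKM in 2×. Pools of a ploidy were close, and the difference was -0.58 ± 0.11 (SE, limma adjusted p = 0.047), with an adjusted p of 0.055 under median-of-ratios scaling. Cs2g15360 (PLA1-IIdelta), the highest of the class, had 47.5 and 50.6 RPKM in 4× and 45.8 and 47.6 RPKM in 2×, and Cs9g04730, named first as an alpha/beta-hydrolase, had 29.8 and 26.2 RPKM in 4× and 29.0 and 25.7 RPKM in 2×. Both overlapped. At low levels, Cs5g08030 had 2.58 and 1.66 RPKM in 4× and 3.84 and 3.03 RPKM in 2×. Cs6g03220 had 1.35 and 0.751 RPKM in 4× and 1.86 and 2.72 RPKM in 2×. Neither was called (differences of -0.60 and -0.86, limma adjusted p = 0.33 and 0.24), and over the class both 4× libraries lay below both 2× libraries in 3 members and above them in 3, against 26.2% and 17.5% of all tested genes.

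Downstream of OPDA, none of the 6 tested 12-oxophytodienoate reductases among 9 members was called by limma or voom. Of the 6, 1 had an unadjusted p below 0.05 in limma, against 2149 of all 16157 tested genes. Cs4g15220, described as OPR3, the peroxisomal isoform that acts in jasmonate synthesis in Arabidopsis, had 67.9 and 62.5 RPKM in 4×, against 93.2 and 74.8 RPKM in 2×. The pools did not overlap, and the difference was -0.36 ± 0.13 (SE, limma adjusted p = 0.24). Cs5g17880, described as OPR2, had 29.6 and 23.0 RPKM in 4× and 30 and 15.9 RPKM in 2×, and Cs5g17900 had 4.50 and 4.23 RPKM in 4× and 6.0 and 3.61 RPKM in 2×. Both overlapped, with the wider spread in 2×.

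The methyltransferase class, of which 13 of 31 members were tested, belongs to the SABATH family, whose members methylate jasmonate, salicylate, indole acetate or xanthines, and the sequence match alone does not settle the substrate. Only 1 of the 13 tested genes, Cs5g19710, had jasmonate O-methyltransferase or another word of the rule ahead of other families, and it was not called (difference of 0.33). The 1 gene called of the 13, against 0.99% of all tested genes called lower, was Cs7g31430, described first as a caffeine synthase. It had 2.27 and 1.67 RPKM in 4×, against 4.33 and 5.93 RPKM in 2×, without overlap, a difference of -1.18 ± 0.23 (SE, limma adjusted p = 0.046), and under median-of-ratios scaling the adjusted p was 0.054. Cs2g19300, also described first as a caffeine synthase and the highest of the class, had 43.3 and 38.7 RPKM in 4×, against 54.8 and 63.1 RPKM in 2×. Its difference was -0.52 ± 0.12 (SE, limma adjusted p = 0.070), and voom on the recovered reads gave an adjusted p of 0.029.

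Other members of that class were more scattered. Cs9g19090 had 15.7 and 17 RPKM in 4× and 21.9 and 21.2 RPKM in 2×, a difference of -0.39 (limma adjusted p = 0.16), whereas Cs3g04610 overlapped, with 21.7 and 14.6 RPKM in 4× and 17.5 and 16.7 RPKM in 2×. Cs3g05620 and Cs3g05650, described first as benzoate carboxyl methyltransferases, had differences of -1.14 ± 0.42 and -0.90 ± 0.32 (SE, limma adjusted p = 0.27 and 0.24). Cs3g05620 had 3.61 and 0.951 RPKM in 4×, against 3.85 and 6.19 RPKM in 2×, so the 4× pools differed more from each other than 4×-1 did from 2×-1. Cs3g05650 had 0.861 and 0.505 RPKM in 4×, against 1.35 and 2.07 RPKM in 2×. The summed level of the 31 genes was 128 and 112 RPKM in 4×, against 148 and 149 RPKM in 2×, a ratio of 0.808 (two-sided exact permutation p = 0.33). Of these sums, Cs2g19300 alone held 43.3 and 38.7 RPKM in 4× and 54.8 and 63.1 RPKM in 2×.

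Conjugation and perception showed no member called by limma or voom. An unadjusted p below 0.05 in limma was found in 1 of the 9 tested, against 2149 of all 16157 tested genes. In the amido synthetase class, whose GH3-type enzymes join hormones to amino acids, 4 of 10 members were tested. The description of orange1.1t00464 names JAR1 second, after an auxin-type enzyme, and its level was nearly even at 34.6 and 33.4 RPKM in 4× and 34.1 and 32.6 RPKM in 2×. Cs5g32030 had 23.0 and 21.4 RPKM in 4× and 23.7 and 20.5 RPKM in 2×, and orange1.1t00825 had 7.79 and 6.60 RPKM in 4× and 5.83 and 8.52 RPKM in 2×. All 3 overlapped. The low gene orange1.1t04463, a GH3.17-type auxin conjugase by its first name, had 0.692 and 0.913 RPKM in 4×, against 2.26 and 1.30 RPKM in 2×, and was not called (difference of -0.78 ± 0.31, SE, limma adjusted p = 0.31).

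Cs7g31600, the single member described first as COI1, had 36.3 and 44.6 RPKM in 4× and 38.5 and 36.5 RPKM in 2×, with a difference of 0.10 ± 0.12 (SE, limma adjusted p = 0.82). The other 5 members of that class are TIR1/AFB auxin receptors by their first names, close relatives of COI1. The 2 highest of them, Cs5g32500 and Cs3g17560, had differences of 0.17 and 0.00. Cs5g32500 had 28.0 and 27.5 RPKM in 4× and 23.1 and 26.2 RPKM in 2×, and Cs3g17560 had 24.0 and 24.7 RPKM in 4× and 25 and 23.8 RPKM in 2×.

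**Figure D3:**
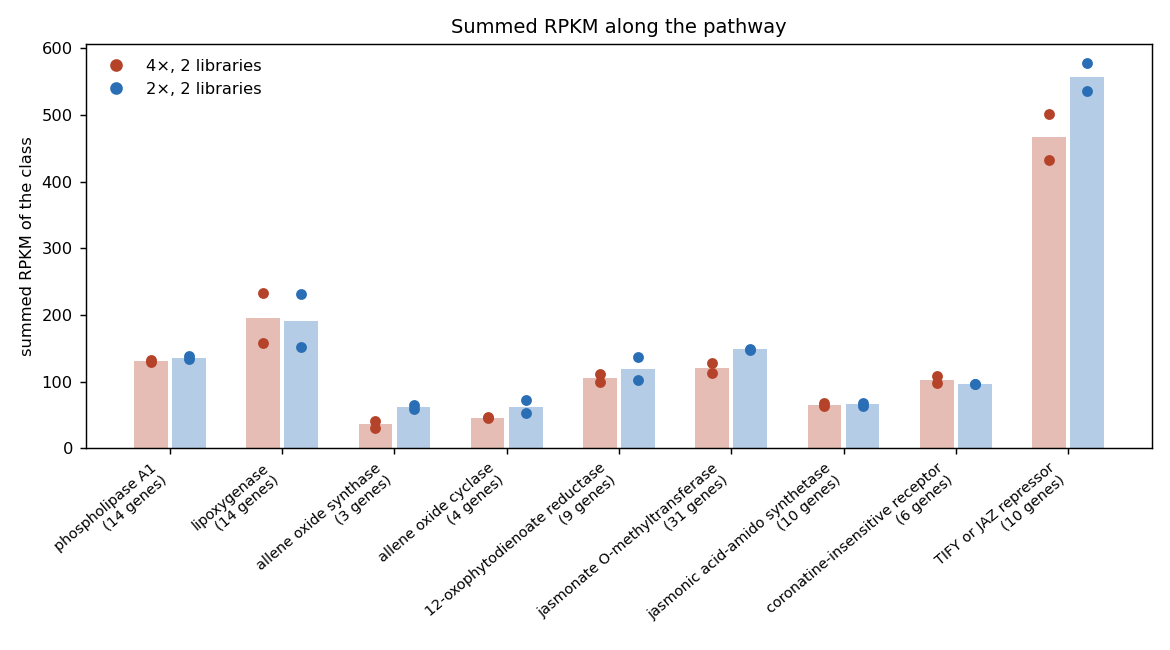
Summed RPKM of each class per library (points) and the mean of 2 libraries (bars, from 0), 4× left of 2×, in pathway order, with the allene oxide enzymes shown as synthases and cyclases. The synthases (36.0 RPKM in 4×, 61.7 RPKM in 2×), cyclases and TIFY genes lie lower in 4×. So do the methyltransferases (120 RPKM in 4×, 148 RPKM in 2×) and, slightly, the phospholipases (131 and 136 RPKM). The receptor class lies slightly higher in 4× (103 and 96.5 RPKM). The lipoxygenases spread within each ploidy, and the amido synthetases are level at 65.6 RPKM in 4× and 65.7 RPKM in 2×. With 2 libraries against 2, the exact permutation p cannot fall below 0.33.

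When the 45 members with another name first were left aside, a division made after seeing the data, 34 tested genes remained. Of these, 7 were called, 21 were below 0 and the median difference was -0.17. Among the 23 tested genes with another name first, 1 was called and the median was 0.01. The backgrounds for these counts are again 1.39% called and a median of -0.03 over all tested genes, most of which were thus below 0.

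With any 1 library left out, the 8 called members stayed lower in 4×, but the calls did not all hold. That direction could not change, because both 4× pools of each gene lay below both 2× pools. Cs4g07130 ranged from -1.10 to -0.71, Cs2g21000 from -1.14 to -0.61 and Cs7g12890 from -1.02 to -0.58 over the 4 omissions. With 1 pool left in a ploidy, that pool is assumed to vary as the other ploidy does. Leaving out 4×-2, in which 7 of the 8 genes (Cs7g12890 excepted) had their lower 4× value, brought the adjusted p of the 8 genes to between 0.062 and 0.16. Without 4×-1, all 8 genes kept an adjusted p below 0.05.

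**Figure D4:**
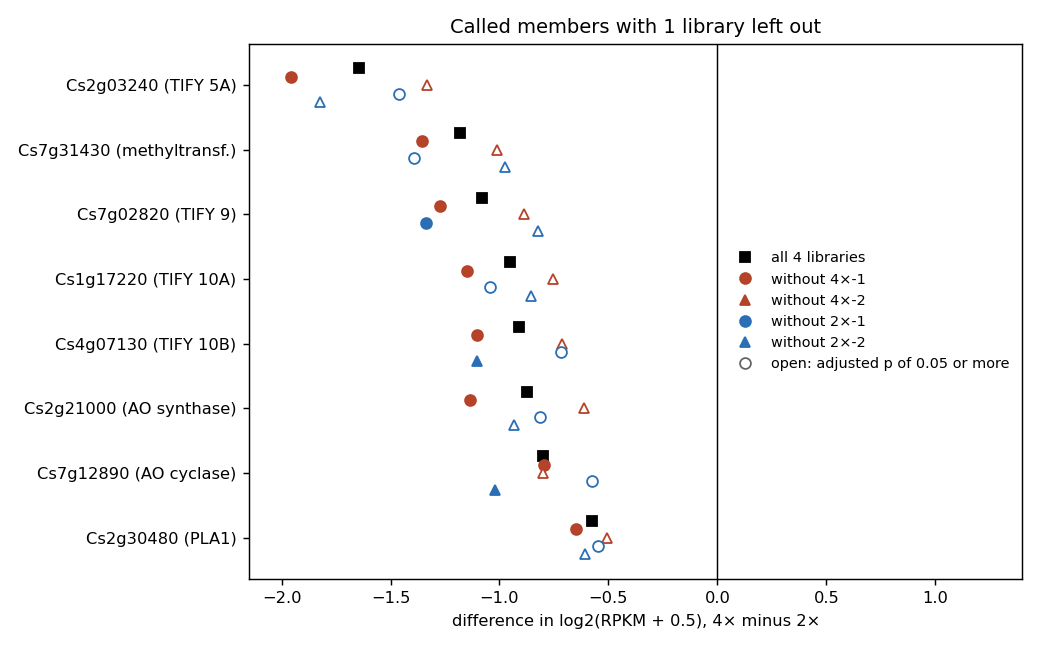
Difference in log2(RPKM + 0.5), 4× minus 2×, of the 8 called members with all 4 libraries and with each library left out in turn. Filled symbols have an adjusted p below 0.05. In each gene both 4× pools lie below both 2× pools, so the sign could not change. Every value lies below 0, from -1.96 to -0.51, and no symbol is filled without 4×-2.

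Other genes of the pathway, collected by description in 8 lists from fatty acid supply to defence proteins, were counted in the same fit. Of 204 such genes 116 were tested, 5 were called lower and 1 higher, or 5.17%, against 1.39% of all tested genes, and the median difference was -0.04. Of the 6 called genes only Cs5g01450 bears the word of its list early in the description (in its first 70 characters). Over the genes named early, 1 of 68 tested was called, or 1.47%, close to the background of 1.39%. None of 9 tested beta-oxidation genes, 9 tested genes of JA-Ile turnover, 28 tested genes of the SCF complex and corepressors and 18 tested genes of peroxisomal import and activation was called by limma, with 1, 2, 2 and 2 genes of these lists, in that order, at an unadjusted p below 0.05, and voom called 1 gene, of the SCF list and higher in 4×. Over all tested genes, 2149 of 16157 had an unadjusted p below 0.05 in limma. The transcription factor Cs5g01450 is described first as MYC4, which in Arabidopsis activates jasmonate responses and is held back by JAZ proteins. Its description then names ABA-INDUCIBLE bHLH-TYPE and GLABRA 3, and the match alone does not settle which of these it is. Cs5g01450 had 3.76 and 3.13 RPKM in 4×, against 8.99 and 6.92 RPKM in 2×. Both 4× pools lay below both 2× pools, a difference of -1.09 ± 0.19 (SE, limma adjusted p = 0.033). It was 1 of 3 genes in its list.

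The desaturase orange1.1t02241 is an omega-6 enzyme by its first name, which makes linoleate rather than the trienoic acid, and had 76.1 and 77.9 RPKM in 4×, against 185 and 152 RPKM in 2× (difference of -1.12 ± 0.12, SE, limma adjusted p = 0.0045). Among 32 tested defence proteins, 3 were called by limma, all lower in 4×, against 0.99% of all tested genes called lower. Their list was mixed: 11 had an unadjusted p below 0.05, of which 4 were higher in 4×, against 2149 of 16157 tested genes. Voom called 4, of which 1 was higher. None of the 10 tested genes named early was called by limma, and their median difference was 0.07. The thaumatin-like genes Cs1g25540 and Cs8g18200, of the pathogenesis-related type, had differences of -1.07 and -1.48 (limma adjusted p = 0.0061 and 0.036), and the miraculin-like protease inhibitor Cs5g16770 had 24.6 and 11.7 RPKM in 4×, against 43.1 and 43.7 RPKM in 2×. The 1 gene called higher, Cs3g16030, is described first as an alpha/beta-fold hydrolase and had 33.4 and 33.6 RPKM in 4×, against 24.0 and 20.0 RPKM in 2× (difference of 0.60 ± 0.12, SE, limma adjusted p = 0.0496).

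Markers of leaf cell types were read beside these results. Of the 15 tested mesophyll markers 1 was called lower, against 0.99% of all tested genes, and the median difference was 0.23. Both 4× libraries lay above both 2× libraries in 7 of the 15 and below them in 2, against 17.5% and 26.2% of all tested genes. Named after its values were seen, the marker called lower was a Rubisco small subunit gene, Cs4g03580. Of 51 tested xylem markers 2 were called higher (Cs2g27790 and Cs2g27860, xylem cysteine proteinases) and 2 lower (Cs1g17350 and Cs2g29090) in 4×. Over all tested genes 1.39% were called in either direction. At an unadjusted p below 0.05 were 16 of the 51 xylem markers, 11 of them higher in 4×, against 2149 of 16157 tested genes. Voom called 5 xylem markers, of which 3 were higher. The 76 xylem genes whose marker word stands early in the description summed to 399 and 393 RPKM in 4×, against 307 and 314 RPKM in 2×. Of these sums, Cs2g27790 alone held 149 and 137 RPKM in 4× and 80.6 and 63.1 RPKM in 2×. Of the 19 tested genes named early, 8 had both 4× libraries above both 2× libraries and 8 below, against 17.5% and 26.2% of all tested genes. The whole list of 157 summed to 5812 and 5965 RPKM in 4×, against 5838 and 5480 RPKM in 2×, and overlapped. Among its 51 tested genes, 18 had both 4× libraries above both 2× libraries and 14 below, against the same 17.5% and 26.2%. The median difference of the tested xylem markers was 0.02, and -0.09 for those named early. None of 48 tested phloem markers, 10 tested guard cell markers or 15 tested markers of dividing cells was called by limma or voom, with 2, 1 and 1 at an unadjusted p below 0.05 in limma and median differences of 0.09, 0.00 and -0.11. The part of the mesophyll and xylem differences in the results above was not tested.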

How the data were processed

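RNA-seq was analysed in 4 libraries of mature leaves, 2 of 4× and 2 of 2×, grouped by the ploidy and replicate in the sample titles. The authors deposited RPKM values, which count the uniquely mapped reads of a gene relative to its length and the library, after alignment to the *C. sinensis* genome with TopHat2 2.0.9. The submitters' notes also name Bowtie2 2.0.6, HTSeq 0.5.4p3 and DESeq 1.10.1. The version of the annotation, and whether strand was used, are not stated in the sources used here, so overlapping and antisense genes cannot be told apart.

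The RPKM values are whole multiples of the value of 1 read. Reads were recovered for 24073 of 24073 genes above 0 (100% whole within 0.001 reads), giving the library totals, of which 97.9% were found again on genes. They are known up to a factor shared by a gene's length and counts. Pools of a ploidy differed by more than sampling noise.

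Genes averaging 1 RPKM or more (16157) were tested on log2(RPKM + 0.5) with limma 3.58.1 in R 4.3.3 (eBayes with trend, two-sided, Benjamini-Hochberg over all tested genes, threshold 0.05, no covariate). Voom was run on the recovered reads as an alternative. Scripts were tested on simulated data. Sums used exact permutation tests, and read ratios exact 95% intervals, in Python 3.11.15 with scipy 1.17.1. A member matching several words went to the class whose word came first. Named were called members, the 3 highest members of each class, and tested members without overlap of the ploidies and with a difference beyond 0.6; others are named as chosen after their values were seen or to complete a class. Members, lists and tests were chosen with earlier results of these data known. Alternatives were pseudocounts of 0.1 and 1, no filter, a mean of at least 3 RPKM, median-of-ratios scaling, robust eBayes, a replicate block, and leaving out each library.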

Additional observations from a re-analysis of the deposited data

How the results depend on the processing

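The count of 8 called members was 8 with pseudocounts of 0.1 and 1 and with robust eBayes, 7 at a mean of at least 3 RPKM, 5 under median-of-ratios scaling, 9 with voom and 0 without the filter on low values, and leaving out 1 library gave 0 to 9. No alternative called a member higher. Over all tested genes limma called 224, against 0 without the filter (2438 at an unadjusted p below 0.05), 404 with voom and 77 to 264 with 1 library left out. The 6 calls among other pathway genes became 0 without the filter, and 2 to 6 with 1 library left out. The median member difference ranged from -0.20 to 0.024 over the omissions, with 0.024 without 2×-1. The log2 ratio of class sums over the omissions ranged from -0.39 to 0.047 for the reductases (above 0 without 2×-1), 0.012 to 0.16 for the receptor class and -0.40 to -0.22 for the methyltransferases, and the phospholipases had -0.013, against -0.045, under median-of-ratios scaling. Limited to members with no other family named first, chosen after seeing the data, the count was 7. Of 473 values of named genes under the alternatives, 387 kept their call or moved by less than the spread and 53 lost the call. A further 4 gained it, 29 moved and 0 of the called reversed. Leaving out a library could not reverse a called gene whose ploidies did not overlap. Among 307 values of uncalled members, 20 changed sign.

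The replicate numbers could not be shown to pair the pools: deviations of same-numbered pools correlated at -0.046 over 16157 genes. With the replicate block 10 members were called, the 8 and Cs2g19300 and Cs3g05620, 13 other pathway genes and 832 genes in all. Depth limits the low members: 44 were untested, and Cs2g03240 rests on 13 reads in 4×.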
